A study of Homo sapiens with 24 samples.

Results

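Neurotensin (NTS) and 8 genes that mark or regulate neuroendocrine cells (CHGA, CHGB, SYP, ENO2, SCG2, SCG3, INSM1 and REST) were followed through a hormone and WDR77 experiment in LNCaP cells. These 9 genes were taken by symbol from a count table of 60649 features. Each matched 1 feature, and 4 of the 9 were measured well enough to test: NTS, SYP, ENO2 and REST. CHGA, CHGB, SCG2, SCG3 and INSM1 were too low to measure in both studies, by the same filter on low counts that set which genes entered the tests.

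LNCaP is an established human prostate adenocarcinoma line that keeps a luminal, androgen-responsive character. The poly(A) RNA-seq series concerns WDR77, a WD-repeat partner of the arginine methyltransferase PRMT5 that also acts as a coregulator of the androgen receptor. In study 1 the cells carried the empty vector (EV) or a construct for WDR77-peptide 3 (P3), and in study 2 they carried siRNA, either a control (siCtrl) or one that targets WDR77 (siWDR77). After transfection all cells were kept in androgen-deprived medium and then received 5 nM R1881, a synthetic androgen, or ethanol as vehicle for 48 h. The 8 groups are EV, P3, siCtrl and siWDR77, each with vehicle and with R1881, and each holds 3 libraries, described as biological triplicates. All groups come from this 1 cell line after transient transfection, and the vector and siRNA experiments are separate studies, so the kind of transfection and the study cannot be told apart.

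Neuroendocrine cells store peptides in dense-core granules and release them when calcium rises. Granins (CHGA, CHGB, SCG2, SCG3) package the granule, prohormone convertases trim the peptides, and synaptophysin (SYP) sits in the membrane of small vesicles. INSM1 is a zinc finger factor that drives the endocrine programme, while REST is a repressor that binds the RE1 element and keeps neuronal genes silent in other tissues. Neurotensin is a short peptide made in gut endocrine cells and neurons, it acts through the receptor NTSR1, and in prostate cancer lines it has been studied as a growth factor that appears when androgen is withdrawn. Neuron-specific enolase (ENO2) is a glycolytic enzyme used clinically as a marker of neuroendocrine tumours.

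Promoters were searched from 250 bases before the RefSeq start site to 50 after it, and parts of 4 of them are shown. For NTS and ENO2 these are the 250 bases before the start. Of the 9 members, 6 matched the RefSeq promoter table (GRCh38.p14), with 7 promoters in all. The NTS promoter is shown because NTS had the widest range, in fold terms, of any member that was measured. It lies at chr12:85874045-85874294 on the plus strand, and its capitals mark a variant of the cAMP response element at positions -51 to -44 and a run of TATA letters at positions -33 to -24.
NTS: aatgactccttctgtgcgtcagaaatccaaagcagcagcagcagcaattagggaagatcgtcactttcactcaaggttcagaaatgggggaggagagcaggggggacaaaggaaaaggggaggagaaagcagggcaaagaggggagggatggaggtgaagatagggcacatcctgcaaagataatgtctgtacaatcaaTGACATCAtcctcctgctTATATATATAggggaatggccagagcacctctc
The ENO2 promoter is shown because ENO2 answered the hormone in 1 study and not in the other. It lies at chr12:6914330-6914579 on the plus strand, with capitals on the hypoxia core ACGTG at -118 to -114 and an AP-1 letter match at -94 to -88.
ENO2: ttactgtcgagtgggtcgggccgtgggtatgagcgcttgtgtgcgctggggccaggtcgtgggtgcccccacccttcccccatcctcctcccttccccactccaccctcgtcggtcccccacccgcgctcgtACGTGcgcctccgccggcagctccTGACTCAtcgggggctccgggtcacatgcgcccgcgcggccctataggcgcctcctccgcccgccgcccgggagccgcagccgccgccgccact
For SCG3 and CHGA, which gave almost no reads, only the stretch around the letters of interest is given. In SCG3 (chr15:51681510-51681539, plus strand) the capitals mark the left arm of the RE1 consensus at positions 9 to 17 after the start and the right arm at 26 to 34. The arms were searched separately, and their spacing was not compared with that of a full RE1 element. In CHGA (chr14:92923085-92923114, plus strand) they mark the cAMP response element at -54 to -47.
SCG3: cTTCAGCACCcacagggcGGACAGCGCtcc
CHGA: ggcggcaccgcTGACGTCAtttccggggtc

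The letters were searched on both strands of all 35116 promoters of the same length. The cAMP response element TGACGTCA stood in 1.85% of them, and TGACNTCA, which includes it, in 7.72%. TATATA was found in 3.99%, the AP-1 letters TGANTCA in 7.71%, and ACGTG in 21.4%. The RE1 arms were rarer, at 0.376% for TTCAGCACC and 0.581% for GGACAGCGC. AGAACA, 1 arm of the androgen response element, was in 14.8% of promoters and in none of the members' windows. A match of letters is a description of the window and not evidence of binding.

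The libraries held 16665915 to 24260446 counts. A count of 0 in a library allows up to 3 counts, 0.124 to 0.18 CPM (counts scaled to a common library total) depending on the library. Levels below are CPM on TMM-scaled library sizes over all 24 libraries, as mean ± SD of 3. WDR77 itself was 45.7 ± 2.88 CPM in siCtrl with vehicle and 13.4 ± 1.84 CPM in siWDR77 with vehicle, and 66.9 ± 1.9 against 14.5 ± 1.19 CPM with R1881, as the siRNA labels say. WDR77 did not differ between P3 and EV in vehicle beyond the threshold (55.7 ± 4.73 and 58.9 ± 4.35 CPM), and with R1881 it was 91.6 ± 5.6 CPM in P3 and 59.8 ± 2.78 in EV (log2 fold change 0.64 ± 0.067, edgeR adjusted p = 2.31e-10). Mitochondrial transcripts made up 5.15% to 6.3% of a library's counts, and 8.4% in siCtrl vehicle library S35. A gene is said to rise, fall or differ only where the adjusted p was under 0.05. Markers of luminal prostate cells summed to between 3006 and 21834 CPM in every library, while 7 of 8 neuroendocrine markers were too low to measure and the summed level of all 8 was 2.0 to 8.1 CPM. NEUROD1 had 0 counts in all 24 libraries. The neuroendocrine name therefore describes the genes and not these cells, whose profile was luminal. Of the basal markers 2 of 5 were measured and of the fibroblast markers 2 of 6, with KRT5 at 1 count and COL1A2 at 0 counts over all libraries. Their summed levels were 13.6 to 31.5 CPM and 7.29 to 32.3 CPM over the libraries.

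NTS, on the long arm of chromosome 12 (GRCh38, 85874295 to 85882992, plus strand), was the measured member that moved most with hormone on the log2 scale. In EV cells with vehicle its level was 18.7, 20.5 and 19.1 CPM in the 3 libraries, and with R1881 it was 0.571, 1.09 and 0.838 CPM, from 11, 19 and 13 reads. No R1881 library came near the vehicle libraries. The fitted fall was 23.2-fold, a log2 fold change of -4.53 ± 0.18 (SE; edgeR quasi-likelihood test, Benjamini-Hochberg adjusted p = 5.92e-24). In a bulk sample, fewer cells that express NTS and less NTS RNA per cell cannot be told apart. The summed mean of the fibroblast markers was 22.8 CPM in EV with vehicle and 14.1 CPM with R1881. COL3A1, a fibrillar collagen, fell in EV (-3.06 ± 0.28, edgeR adjusted p = 2.49e-12) and siCtrl (-3.39 ± 0.24, edgeR adjusted p = 1.26e-11). COL1A1 did not pass in EV (-0.23 ± 0.11, edgeR adjusted p = 0.085). It fell in siCtrl (-1.20 ± 0.12), where the sum was 30.3 CPM with vehicle and 10.7 CPM with R1881. The basal keratin KRT14 rose in siCtrl (3.43 ± 0.31) and did not pass in EV (0.32 ± 0.23, edgeR adjusted p = 0.263). DST, the other basal marker measured, fell in EV (-0.33 ± 0.096, edgeR adjusted p = 0.00357) and did not pass in siCtrl (-0.20 ± 0.33, edgeR adjusted p = 0.642). The summed basal mean went from 29.4 to 24.3 CPM in EV and from 18.6 to 24.1 CPM in siCtrl. The part of these markers in the members' changes was not tested.

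With P3 the NTS range was narrower at both ends. P3 cells with vehicle gave 9.87, 11.1 and 10.01 CPM, all below the EV vehicle libraries. P3 cells with R1881 gave 4.68, 4.65 and 4.32 CPM, all above the EV libraries with R1881. In the vehicle arm P3 was lower than EV by a log2 fold change of -0.89 ± 0.12 (edgeR adjusted p = 1.37e-06), and with R1881 it was higher by 2.48 ± 0.21, or 5.59-fold (edgeR adjusted p = 1.34e-12). R1881 still lowered NTS in P3 cells, 2.23-fold (log2 fold change -1.16 ± 0.14, edgeR adjusted p = 1.11e-08). The 2 responses differed by 3.38 ± 0.25 on the log2 scale when tested directly (95% interval 2.88 to 3.87, edgeR adjusted p = 3.03e-14). For comparison, 5 of 5 androgen-induced reference genes also responded less in P3 than in EV, among them KLK2 (-2.03 ± 0.076) and TMPRSS2 (-1.53 ± 0.065). Over all genes 11.1% were called lower and 11.5% higher for that difference. KLK2 and TMPRSS2 were already higher in P3 than in EV with vehicle (1.33 ± 0.055 and 0.65 ± 0.046). With R1881 both were lower in P3 (-0.69 ± 0.052 and -0.88 ± 0.046). The part of the vehicle levels in these smaller responses was not tested.

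In study 2, NTS fell with hormone in both siRNA arms. Control siRNA cells had 9.78, 8.17 and 10.9 CPM with vehicle and 0.781, 0.763 and 0.517 CPM with R1881. The fall was 13.8-fold (log2 fold change -3.78 ± 0.28, edgeR adjusted p = 1.83e-11). Cells with siWDR77 had 7.12, 7.85 and 6.28 CPM with vehicle and 0.729, 1.40 and 0.414 CPM with R1881, a fall of 8.39-fold (log2 fold change -3.07 ± 0.26, edgeR adjusted p = 3.89e-10). The 3 siWDR77 vehicle libraries lay just under the 3 siCtrl vehicle libraries, but the difference did not pass the test over all genes (-0.44 ± 0.20, edgeR adjusted p = 0.345). With R1881 the arms overlapped (0.28 ± 0.37, edgeR adjusted p = 0.74). The difference between the responses of the arms was estimated at 0.72 ± 0.42 and did not pass (95% interval -0.15 to 1.58, edgeR adjusted p = 0.685).

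**Figure D1:**
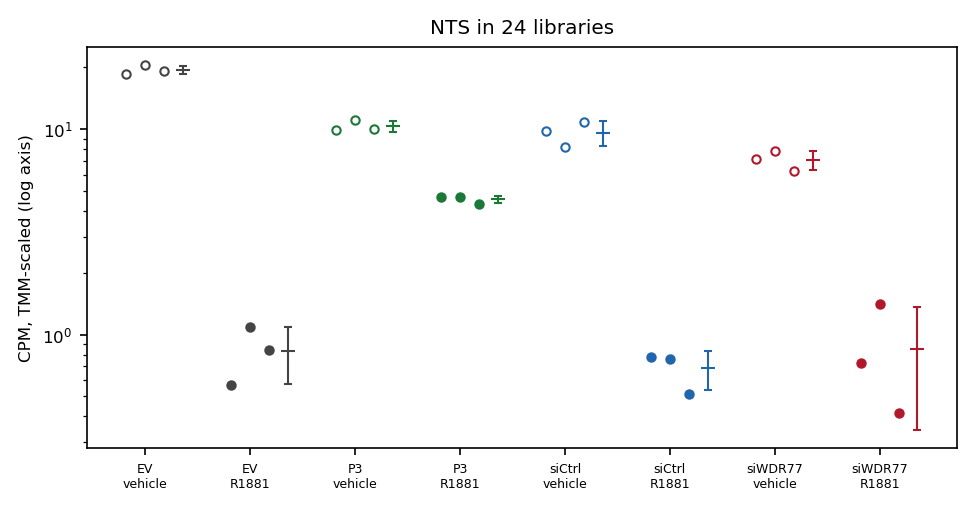
NTS level in CPM (log axis) in each of the 24 libraries, by group, with open circles for vehicle and filled circles for R1881; the bar beside each group is the mean ± SD of 3 libraries. The R1881 libraries of EV, siCtrl and siWDR77 sit between 0.414 and 1.40 CPM, and those of P3 between 4.32 and 4.68 CPM.

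The order of the NTS group means ran from EV vehicle (19.4 ± 0.938 CPM) through P3 vehicle (10.3 ± 0.658), siCtrl vehicle (9.61 ± 1.36), siWDR77 vehicle (7.08 ± 0.786) and P3 with R1881 (4.55 ± 0.201) to siWDR77 (0.849 ± 0.506), EV (0.832 ± 0.258) and siCtrl (0.687 ± 0.148) with R1881. P3 and siCtrl vehicle overlapped in their libraries, and the 3 lowest groups overlapped among themselves. The vehicle controls of the studies did not: siCtrl was lower than EV by a log2 fold change of -1.01 ± 0.15 (edgeR adjusted p = 1.34e-06, a fit over all 24 libraries added after the counts were seen). The R1881 response in siCtrl minus that in EV was 0.77 ± 0.38, which did not pass (edgeR adjusted p = 0.179).

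Granins were close to absent. CHGA, the chromogranin that drives granule formation, had 1 read in 1 EV vehicle library, 1 read in 1 siCtrl library with R1881, and 0 in the other 22. CHGB had 13 reads in all, at most 3 in a library and 0 in 16 libraries. SCG2, the precursor of secretoneurin, had 35 reads, at most 6 in a library and 0 in 9. SCG3, which tethers granins to the granule membrane, had 38 reads, at most 5 in a library and 0 in 7.

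INSM1, which is intronless and lies on chromosome 20 (20368121 to 20370949, plus strand), had 0 reads in all 24 libraries, which allows up to 0.00624 CPM over the libraries together. SCG2 was at 0 reads in all 3 siWDR77 libraries with R1881 and at 0, 6 and 5 in siCtrl vehicle, and SCG3 was at 0 in all 3 P3 vehicle libraries and at 5, 2 and 4 in siWDR77 with R1881. These 5 genes did not enter the tests, and their counts are given as a description only. SCG3, whose printed window holds both RE1 arms, and CHGA, whose window holds the cAMP response element, were therefore both close to or at the detection limit.

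**Figure D2:**
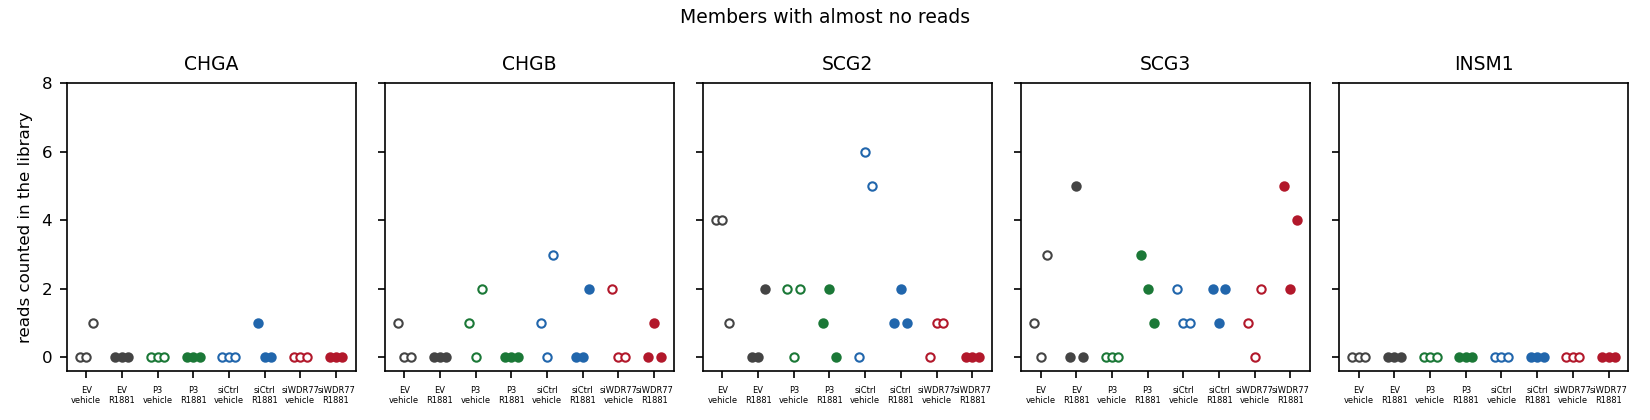
Read counts of CHGA, CHGB, SCG2, SCG3 and INSM1 in each of the 24 libraries, by group, with open circles for vehicle and filled circles for R1881. No library held more than 6 reads of any of these genes, and INSM1 is at 0 throughout.

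SYP, the vesicle membrane protein, was the only one of the 8 neuroendocrine markers above that could be measured, at a low level. EV cells had 2.50, 2.51 and 2.29 CPM with vehicle and 6.03, 3.89 and 4.45 CPM with R1881. The groups did not overlap, and SYP rose with hormone (log2 fold change 0.99 ± 0.24, edgeR adjusted p = 0.000479). In siWDR77 cells SYP was 3.01, 3.08 and 3.36 CPM with vehicle and 6.17, 7.78 and 6.68 CPM with R1881, a rise of 1.12 ± 0.19 (edgeR adjusted p = 2.79e-05). These 3 siWDR77 libraries with R1881 were the highest of all 24. SYP overlaps the antisense gene SYP-AS1 by 68 exon bases, but SYP-AS1 had only 2 counts in all.

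In siCtrl cells SYP was 3.02, 3.81 and 2.46 CPM with vehicle and 5.36, 3.87 and 4.20 CPM with R1881 (log2 fold change 0.53 ± 0.20, edgeR adjusted p = 0.0316). That call was lost without the vehicle library S21 (edgeR adjusted p = 0.0662) or S7 (0.156), or without the R1881 library S22 (0.182). In P3 cells the values were 2.41, 2.45 and 1.59 CPM with vehicle and 2.34, 4.27 and 2.88 CPM with R1881. These overlapped and did not pass the test (0.58 ± 0.25, edgeR adjusted p = 0.0921).

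With R1881, SYP was lower in P3 than in EV (-0.58 ± 0.23, edgeR adjusted p = 0.0447), but without EV library S16 the adjusted p was 0.299, without S30 it was 0.0559, and without P3 library S20 or S6 it was 0.216 or 0.127. The P3 response minus the EV response was -0.41 ± 0.34, which did not pass (edgeR adjusted p = 0.436). With R1881, siWDR77 lay above siCtrl in all 3 libraries (0.62 ± 0.19), just short of the threshold (edgeR adjusted p = 0.0512, and 0.0355 with DESeq2).

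ENO2 answered R1881 in study 2 and not in study 1. In siCtrl cells it was 33.9, 40.0 and 30.2 CPM with vehicle and 11.7, 9.80 and 9.75 CPM with R1881. Every R1881 library was far below every vehicle library, a fall of 3.33-fold (log2 fold change -1.74 ± 0.13, edgeR adjusted p = 2.88e-10). In siWDR77 cells it went from 30.5, 29.1 and 29.8 CPM to 7.48, 9.18 and 11.8 CPM, a fall of 3.15-fold (-1.66 ± 0.13, edgeR adjusted p = 5.91e-10). The response did not differ detectably between the siRNA arms (0.08 ± 0.19, 95% interval -0.31 to 0.48, edgeR adjusted p = 0.951).

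EV cells instead had 40.5, 42.2 and 44.3 CPM of ENO2 with vehicle and 36.2, 48.2 and 49.2 CPM with R1881, with 1 R1881 library below and the other two above the vehicle libraries. The change was 0.08 ± 0.094 (95% interval -0.11 to 0.28, edgeR adjusted p = 0.478). With unscaled totals it was -0.08, on a scale where all genes of that comparison shift by -0.15. Without R1881 library S16 it was 0.22 (edgeR adjusted p = 0.034). P3 cells had 46.6, 48.2 and 52.0 CPM with vehicle and 39.1, 46.1 and 48.8 CPM with R1881 (-0.11 ± 0.092, edgeR adjusted p = 0.459).

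The difference between the siCtrl and EV responses of ENO2 was -1.80 ± 0.18 (95% interval -2.18 to -1.43, edgeR adjusted p = 1.45e-07), in the 24-library fit added after the counts were seen. In the vehicle controls ENO2 did not differ beyond the threshold between the studies (-0.29 ± 0.12, edgeR adjusted p = 0.0656). Other genes also differed between the studies' responses, among them KLK2, an androgen-induced kallikrein, whose response was larger in siCtrl by 3.21 ± 0.32 and whose vehicle level was lower there, with a log2 fold change of -3.55 ± 0.25. The part of these baselines in the ENO2 difference was not tested.

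The other enolases did not share the ENO2 pattern. ENO1, the ubiquitous form, had a mean of 1027 CPM in siCtrl vehicle and 1341 CPM with R1881, a rise of 0.38 ± 0.058 (edgeR adjusted p = 5.56e-06). It was 1826 and 1936 CPM in EV (0.10 ± 0.045, edgeR adjusted p = 0.0589). ENO3, the muscle form, did not pass in any of the 4 hormone comparisons, where its log2 fold changes were -0.18, -0.12, -0.16 and -0.24. The handling of reads with several alignments is not stated, so ENO1, which has processed copies in the genome, is less certain than ENO2.

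REST was well expressed in every library. It was 69.0, 71.9 and 67.2 CPM in EV with vehicle and 91.6, 99.4 and 81.8 CPM with R1881, with no overlap. It rose 1.33-fold (log2 fold change 0.41 ± 0.064, edgeR adjusted p = 7.34e-07). In siWDR77 it went from 72.6, 79.9 and 72.4 CPM to 92.4, 94.6 and 97.5 CPM (0.34 ± 0.063, edgeR adjusted p = 7.63e-05). REST overlaps NOA1 on the other strand by 23 exon bases, and the strand setting of the counting is not given in the sources used here.

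In siCtrl, REST was 74.7, 75.1 and 83.6 CPM with vehicle and 90.8, 89.8 and 86.1 CPM with R1881 (0.19 ± 0.063, edgeR adjusted p = 0.0151). With unscaled totals the means were 83.9 CPM with vehicle and 79.8 CPM with R1881, a log2 ratio of -0.07 on a scale where all genes of that comparison shift by -0.26. The direction held without each library in turn (0.16 to 0.25), but the call was lost without vehicle library S21 (edgeR adjusted p = 0.0621) or S35 (0.0583) or R1881 library S22 (0.0577).

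In P3, REST was 70.5, 73.0 and 71.3 CPM with vehicle and 74.1, 78.6 and 81.2 CPM with R1881, which did not pass (0.14 ± 0.063, edgeR adjusted p = 0.105). The P3 response was smaller than the EV response by -0.26 ± 0.090 (edgeR adjusted p = 0.0295, and 0.063 without EV R1881 library S16). With R1881, P3 was lower than EV in all 3 libraries (-0.20 ± 0.063, edgeR adjusted p = 0.0127, and 0.0594 without EV library S2).

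**Figure D3:**
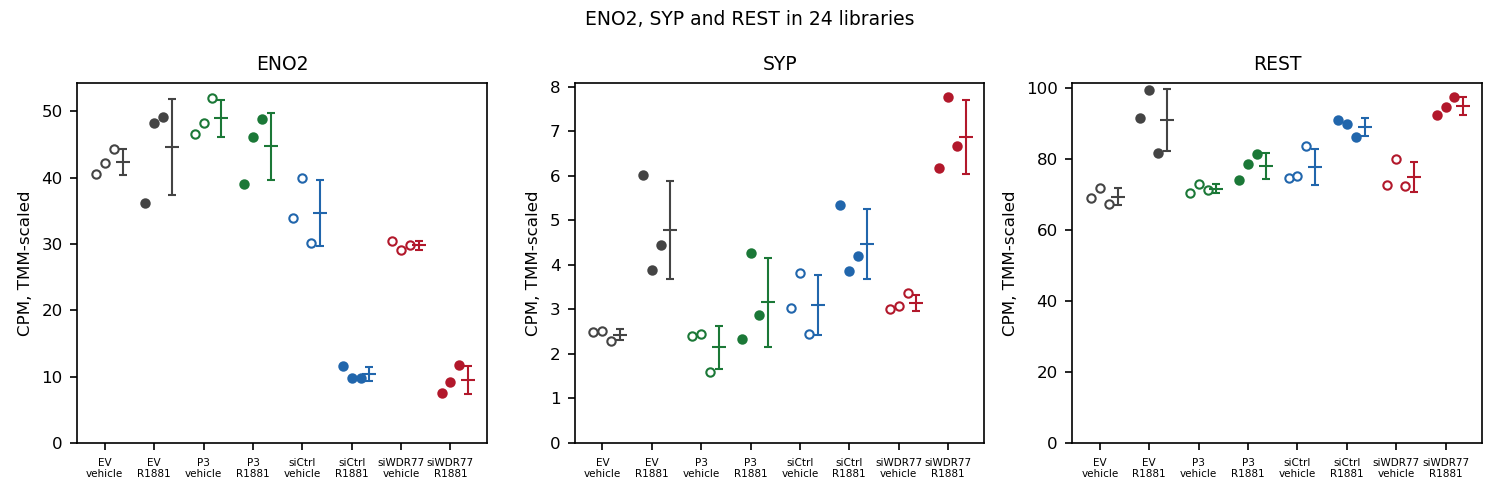
ENO2, SYP and REST levels in CPM in each of the 24 libraries, by group, with open circles for vehicle and filled circles for R1881 and a bar for the mean ± SD of 3 libraries. ENO2 is 7.48 to 11.8 CPM in the R1881 libraries of study 2 against 36.2 to 49.2 CPM in EV with R1881, and SYP is highest in siWDR77 with R1881.

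Per kb of exon, which allows levels to be set between genes, NTS (12.5 CPM per kb), ENO2 (9.89) and REST (8.69) were of one order in EV vehicle and SYP was at 0.467. With R1881, NTS was at 0.535 CPM per kb in EV, below SYP at 0.918, while ENO2 was at 10.4 and REST at 11.4. P3 with R1881 kept NTS at 2.92 CPM per kb, above SYP at 0.607.

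The order of SYP means had siWDR77 with R1881 at the top (6.87 ± 0.822 CPM), followed by EV (4.79 ± 1.11) and siCtrl (4.47 ± 0.782) with R1881, and each later neighbour in the order overlapped the one before it. For ENO2 the 4 groups of study 1 came first, from 48.9 ± 2.78 CPM in P3 vehicle to 42.3 ± 1.89 in EV vehicle, each overlapping the next. Then came siCtrl vehicle (34.7 ± 4.97) and siWDR77 vehicle (29.8 ± 0.707), which overlapped, and the R1881 groups siCtrl (10.4 ± 1.09) and siWDR77 (9.49 ± 2.17), which also overlapped. For REST, siWDR77 (94.8 ± 2.57), EV (90.9 ± 8.80) and siCtrl (88.9 ± 2.48) with R1881 had the highest means and overlapped. P3 with R1881 (78.0 ± 3.6) and the 4 vehicle groups followed, each overlapping the next, down to 69.4 ± 2.39 CPM in EV, and 1 siCtrl vehicle library (83.6 CPM) lay above the lowest EV library with R1881 (81.8 CPM).

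The calls of the 4 measured members are given beside the share of genes called in the whole table. With 4 genes, chosen with earlier results of these data known, the counts cannot show a departure from that share. R1881 in EV called SYP and REST higher and NTS lower, 3 of 4, where 51.4% of the 17772 tested genes were called, 24.9% higher and 26.4% lower. In P3 it called only NTS, 1 of 4 against 21% (13% higher and 7.96% lower). In siCtrl and in siWDR77 it called all 4, SYP and REST higher and NTS and ENO2 lower, against 51.1% (25.7% higher and 25.4% lower) and 53.2% (27.7% higher and 25.5% lower) of 17893 genes.

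Between P3 and EV in vehicle NTS alone was called, against 15.8% of all genes (7.93% higher and 7.88% lower). ENO2, higher in all 3 P3 libraries (0.23 ± 0.092, edgeR adjusted p = 0.0891), passed as well with only the 6 libraries compared (0.26, edgeR adjusted p = 0.00861) and with no filter on low counts (0.21, edgeR adjusted p = 0.0486). With R1881 NTS was higher and SYP and REST lower, against 37% (18.1% higher and 18.9% lower). The difference of response between P3 and EV was called for NTS and REST, against 22.6% (11.5% higher and 11.1% lower). Between siWDR77 and siCtrl no member was called, in vehicle (1.53% of all genes, 0.682% higher and 0.844% lower), with R1881 (7.22%, 3.9% higher and 3.31% lower) or in the difference of response. For that last comparison edgeR called 0 of 17893 genes (0%), with 1484 at an unadjusted p under 0.05, and DESeq2 called 54. In the added contrasts, ENO2 alone differed in response between siCtrl and EV, against 16.8% of 18999 genes (10.7% higher and 6.04% lower). In vehicle NTS was lower and REST higher in siCtrl (0.17 ± 0.064, edgeR adjusted p = 0.0422), against 34.5% (15.6% higher and 18.9% lower).

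**Figure D4:**
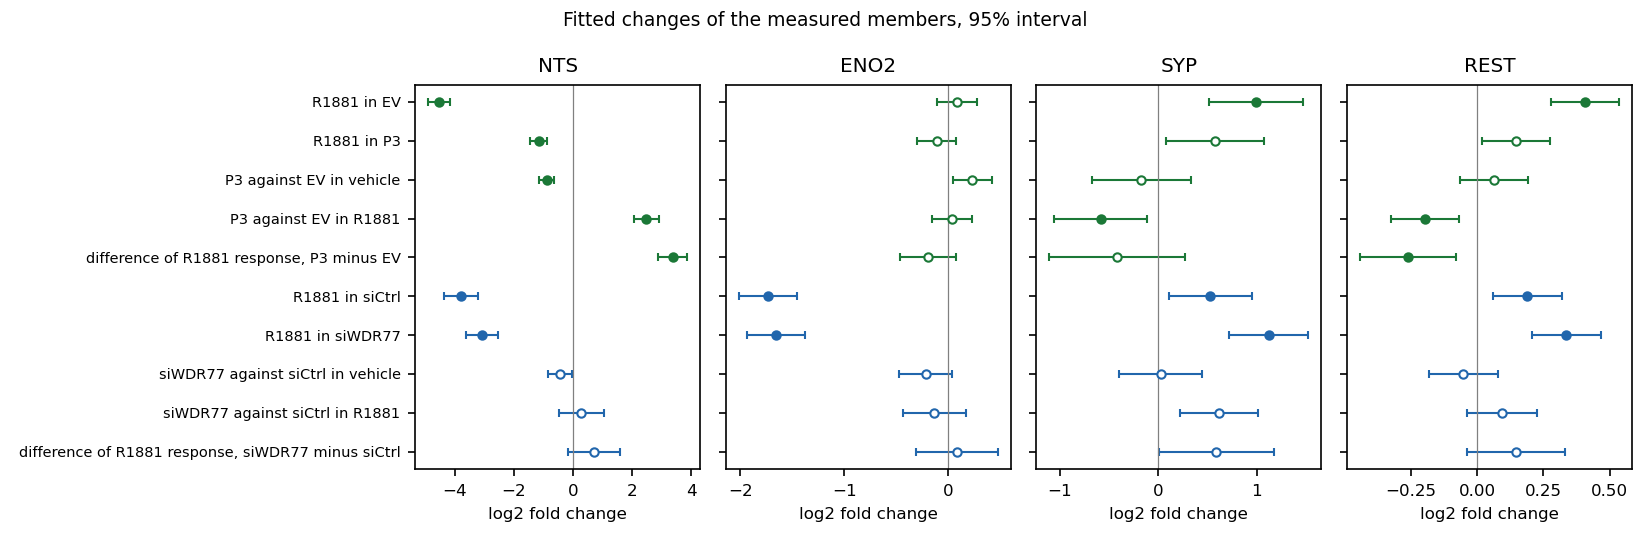
Fitted log2 fold changes of NTS, ENO2, SYP and REST in the 10 comparisons of the design, with 95% intervals; green is study 1, blue is study 2, and filled points have an edgeR adjusted p under 0.05. The NTS difference of response between P3 and EV is 3.38, and the ENO2 changes with R1881 are -1.74 and -1.66 in study 2 and 0.08 and -0.11 in study 1; each panel has its own scale.

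Across the 24 libraries, log2 levels of NTS and REST were inversely related (Pearson r = -0.879), as were those of NTS and SYP (r = -0.817), while SYP and REST rose and fell together (r = 0.810). NTS and ENO2 were related in study 2 (r = 0.948) and not in study 1 (r = 0.058). These values describe 24 libraries that share the hormone contrast and the library scaling. Among 14547 genes measured in both studies with a mean of at least 1 CPM, those most like NTS over the 24 libraries were TFDP1 (r = 0.983), NUP93 (0.977), CBX1 (0.975), PRKAR1B (0.975) and TLL1 (0.971). TLL1, a secreted metalloprotease, went from 52.1 to 4.34 CPM with R1881 in EV and from 43.8 to 25.5 CPM in P3.

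For SYP the nearest genes were HBP1 (r = 0.929), ANXA5 (0.924), EMC7 (0.919), ARFGAP3 (0.916) and CDC37L1 (0.916). For REST they were YIPF6 (0.947), ATP11B (0.945), ARFGEF2 (0.944), TRIP12 (0.943) and GK5 (0.943). ENO2 was closest to EPB41L2 (0.962), CAVIN1 (0.951), LARGE2 (0.947), PLS3 (0.946) and PYGL (0.944). The ENO2 likeness came from study 2: within study 1 these 5 correlations were between 0.081 and 0.531.

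The neurotensin receptors were measured except for NTSR2, which had 104 counts in all. NTSR1, the high-affinity receptor, was low everywhere, with group means between 1.11 and 3.11 CPM. It fell with R1881 in siCtrl (-0.93 ± 0.29, edgeR adjusted p = 0.00962) and siWDR77 (-1.07 ± 0.31, edgeR adjusted p = 0.00495), and did not pass in EV (0.42 ± 0.30, edgeR adjusted p = 0.253) or P3 (-0.33 ± 0.28, edgeR adjusted p = 0.482). SORL1, a sorting receptor that also binds neurotensin, fell in all 4 arms, from 49.7 to 21.2 CPM in EV (-1.20 ± 0.095), from 46.2 to 29.2 CPM in P3 (-0.64 ± 0.091), from 56.1 to 12.8 CPM in siCtrl (-2.14 ± 0.12) and from 59.3 to 14.1 CPM in siWDR77 (-2.07 ± 0.12). Its response differed between P3 and EV by 0.56 ± 0.13 (edgeR adjusted p = 0.00138). Sortilin, SORT1, rose in EV alone among the 4 arms (0.42 ± 0.066, edgeR adjusted p = 9.72e-07), and that response differed from P3 (-0.36 ± 0.093, edgeR adjusted p = 0.00344) and from siCtrl (-0.42 ± 0.087, edgeR adjusted p = 0.000582).

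Of 17 granin relatives and granule cargo genes outside the members, 5 were measured and 6 had no count at all. Their median log2 fold change with R1881 was 0.06 in EV, where the median of all genes was -0.04. There 1 was called higher and 1 lower, against 24.9% and 26.4% of all genes. All 5 were called in siCtrl, where 25.7% of all genes were called higher and 25.4% lower. VGF and GAL (0.81 ± 0.18) rose there, and ADM (-1.77 ± 0.52), NUCB2 (-0.53 ± 0.069) and PCSK1N (-0.47 ± 0.11) fell. In siWDR77 VGF rose, ADM and NUCB2 fell, and GAL and PCSK1N did not pass. VGF, a granin-like neuropeptide precursor, rose from 0.976 to 6.31 CPM in EV (2.704 ± 0.25, edgeR adjusted p = 4.45e-12) and from 0.507 to 6.20 CPM in siCtrl (3.61 ± 0.33, edgeR adjusted p = 1.05e-09), opposite to NTS. In P3 it rose less (1.29 ± 0.25), and the response differed from that of EV by -1.42 ± 0.36 (edgeR adjusted p = 0.00316). ADM, the adrenomedullin precursor, was at 0.966 CPM in EV with vehicle and 0.114 CPM with R1881, a level near that of a count of 0, and at 1.87 and 1.68 CPM in P3. Against siCtrl, NUCB2 was higher in siWDR77 in vehicle (0.43 ± 0.068, edgeR adjusted p = 0.000748) and with R1881 (0.49 ± 0.069, edgeR adjusted p = 8.7e-05). GAL was lower with R1881 (-1.02 ± 0.19, edgeR adjusted p = 0.00153). PCSK1N, VGF and ADM did not pass with R1881, where 7.22% of all genes were called.

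The enzymes that trim prohormones were represented by 8 of 13 genes. The granule convertases PCSK1 and PCSK2, which cut neurotensin from its precursor, had 27 and 8 counts in all 24 libraries and were not tested. CPE, the carboxypeptidase that finishes the cut, was at 84.8 to 130.2 CPM in every group. R1881 in EV called 3 of the 8 higher and 3 lower, where 24.9% of all genes were called higher and 26.4% lower. They included FURIN (0.49 ± 0.064), a convertase of the secretory pathway, QPCTL (0.76 ± 0.11), which forms the pyroglutamate at the start of peptides such as neurotensin, and PCSK6 (-0.71 ± 0.079). In siCtrl it called 3 higher and 2 lower, where 25.7% of all genes were called higher and 25.4% lower. QPCTL was at 1.04 ± 0.095 there, PCSK6 at -0.69 ± 0.078 and PAM, the amidating enzyme, at -0.83 ± 0.16. With R1881, CPE (0.31 ± 0.062, edgeR adjusted p = 0.00268) and PAM (0.64 ± 0.16, edgeR adjusted p = 0.0148) were higher in siWDR77 than in siCtrl. The other measured genes of this list did not pass there, and neither CPE nor PAM passed in vehicle.

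Genes of the granule membrane and its release machinery included more that rose than fell. Of 29 genes listed, 21 were tested in each study. R1881 called 10 higher and 2 lower in EV (median 0.33, all genes -0.04), 7 and 0 in P3 (0.08, all genes -0.02), 9 and 3 in siCtrl (0.35, all genes -0.04) and 10 and 4 in siWDR77 (0.32, all genes -0.02). The shares over all genes were 24.9% higher and 26.4% lower in EV, 13% and 7.96% in P3, 25.7% and 25.4% in siCtrl, and 27.7% and 25.5% in siWDR77. RAB3B, a vesicle GTPase, went from 60.6 to 288.7 CPM in EV (2.26 ± 0.059, edgeR adjusted p = 2.4e-30) and from 74.8 to 379.9 CPM in siCtrl (2.34 ± 0.076, edgeR adjusted p = 2.28e-17).

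CADPS2, which primes dense-core granules, rose by 2.73 ± 0.095 in EV and 3.90 ± 0.14 in siCtrl, and PTPRN2, a granule membrane protein, by 2.88 ± 0.14 in EV and 2.56 ± 0.14 in siWDR77. RAB27A, which docks granules, rose by 1.30 ± 0.11 in P3, 3.11 ± 0.11 in siCtrl and 3.03 ± 0.10 in siWDR77. Responses in P3 were smaller than in EV for RAB3B (-0.998 ± 0.082), CADPS2 (-1.45 ± 0.13), RAB3D (-0.53 ± 0.074) and PTPRN2 (-1.41 ± 0.20). For that difference 7 genes of the list were called lower and 0 higher, where 11.1% of all genes were called lower and 11.5% higher. SYT4, a synaptotagmin, was abundant at 508 to 1035 CPM and lower in siCtrl than in EV vehicle (-0.83 ± 0.060, edgeR adjusted p = 1.57e-13). Several of these genes are used by luminal secretory cells as well.

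Of 21 transcription factors of neuroendocrine differentiation, 15 were too low to measure. All 6 that were measured passed the test with R1881 in EV, 3 higher and 3 lower, and again in siCtrl, 3 and 3, against 51.4% and 51.1% of all genes called. HES6, a Hairy-related factor, rose from 54.1 to 391.6 CPM in EV (2.88 ± 0.12, edgeR adjusted p = 7.81e-10) and from 33.2 to 165.5 CPM in siCtrl (2.32 ± 0.19, edgeR adjusted p = 5.83e-06). MYT1, a neural zinc finger factor, fell in EV (-1.33 ± 0.15), P3 (-0.74 ± 0.14), siCtrl (-1.87 ± 0.17) and siWDR77 (-2.29 ± 0.17). SOX11 fell by -1.09 ± 0.20 in EV and -2.43 ± 0.24 in siCtrl.

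Other markers of neuroendocrine or neuronal cells numbered 19, with 11 measured. DDC, the decarboxylase of dopamine and serotonin synthesis, had a pattern close to that of NTS. It went from 186.5 to 8.07 CPM with R1881 in EV (-4.50 ± 0.096, edgeR adjusted p = 6.31e-26) and from 130.0 to 64.7 CPM in P3 (-0.98 ± 0.074, edgeR adjusted p = 9.99e-12). The responses differed by 3.52 ± 0.12 (edgeR adjusted p = 6.43e-19). In siCtrl it fell by -4.13 ± 0.11 and in siWDR77 by -4.77 ± 0.11.

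MAOA, which degrades monoamines, rose by 0.95 ± 0.048 in EV and 1.03 ± 0.083 in siCtrl. EZH2 and AURKA, raised in neuroendocrine prostate cancer and linked to proliferation, fell in EV by -0.95 ± 0.077 and -1.24 ± 0.083. In siCtrl EZH2 fell (-0.63 ± 0.16, edgeR adjusted p = 0.00547) and AURKA did not pass (-0.74 ± 0.34, edgeR adjusted p = 0.102). In EV the 11 genes had 3 called higher and 6 lower, with a median of -0.23, against 24.9% and 26.4% of all genes.

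**Figure D5:**
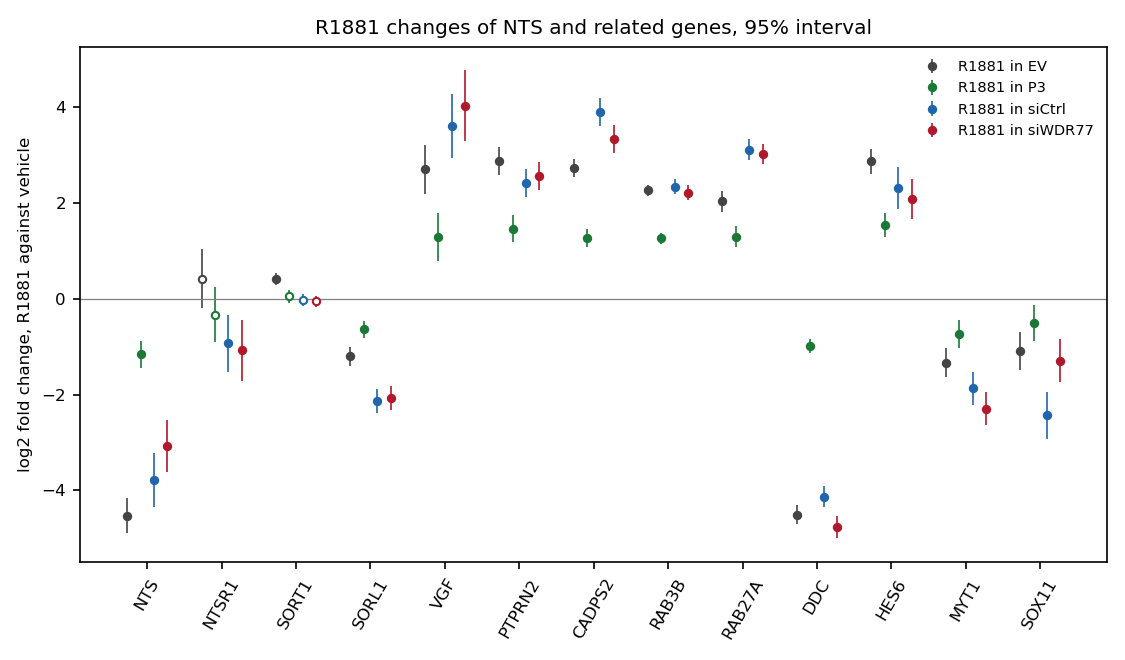
Fitted log2 fold change with R1881 against vehicle, with 95% intervals, for NTS and 12 related genes in the 4 arms; filled points have an edgeR adjusted p under 0.05. In P3 (green) NTS is at -1.16 against -4.53 in EV (dark grey), and DDC at -0.98 against -4.50.

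The partners of REST were measured in 14 of 16 cases. With R1881 in EV, 3 were called higher and 6 lower (median -0.11), against 24.9% and 26.4% of all genes. USP7, which removes ubiquitin from REST, rose in EV (0.26 ± 0.051), siCtrl (0.51 ± 0.062) and siWDR77 (0.66 ± 0.062), and SIN3A, a corepressor scaffold, in the same arms (0.29 ± 0.056, 0.57 ± 0.071 and 0.70 ± 0.071). EHMT2, a histone methyltransferase recruited by REST, fell in EV (-0.51 ± 0.067), P3 (-0.21 ± 0.066), siCtrl (-0.54 ± 0.077) and siWDR77 (-0.36 ± 0.076). RCOR2 fell in EV (-0.90 ± 0.26), siCtrl (-1.48 ± 0.21) and siWDR77 (-1.08 ± 0.19).

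Of 26 genes that REST is known to bind and repress, 17 were measured in study 1 and 16 in study 2. With R1881 in EV, 8 of these 17 were called higher and 2 lower (median 0.33, all genes -0.04). In siCtrl the counts were 4 and 2 of 16 (median 0.08, all genes -0.04) and in siWDR77 4 and 2 (median -0.00, all genes -0.02). Over all genes 51.4%, 51.1% and 53.2% were called in these arms. By direction these were 24.9% higher and 26.4% lower in EV, 25.7% and 25.4% in siCtrl, and 27.7% and 25.5% in siWDR77. Against these shares, more targets were called higher and fewer lower in EV. In study 2 the share called higher was near that of all genes and fewer were called lower. These shares were not tested. The genes called higher with the smallest adjusted p in both EV and siCtrl were VGF, MAPK8IP2 (0.91 ± 0.086 and 0.87 ± 0.086) and CELSR3 (0.54 ± 0.12 and 0.55 ± 0.13). In P3, where REST did not pass, VGF (1.29 ± 0.25) and MAPK8IP2 (0.36 ± 0.088, edgeR adjusted p = 0.0017) rose. CELSR3 did not pass there (0.19 ± 0.12, edgeR adjusted p = 0.316). GRIN1, a glutamate receptor subunit, fell in siCtrl (-0.28 ± 0.096, edgeR adjusted p = 0.0159) and siWDR77 (-0.53 ± 0.097, edgeR adjusted p = 5.48e-05). Of the members SYP and CHGA, which REST is also known to repress, only SYP could be tested, and it rose with R1881 in EV, siCtrl and siWDR77.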

How the data were processed

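The authors deposited 1 table of raw counts, reads per gene and library, for 24 poly(A) RNA-seq libraries of LNCaP cells. Per the submitters' processing notes, bcl2fastq 2.20, STAR 2.7.9a and featureCounts of Subread 1.6.4 were used with GRCh38.p7. Annotation release, strand setting and the handling of reads with several alignments: not given in the sources used here. In 3 columns of the P3 group with R1881 the table's name also carries the word siRNA; they were matched by sample number to titles that name P3 alone. No column of other samples was used. Depth was 16665915 to 24260446 counts per library. Limits from a count of 0 cover counting error only, since the reads carry no molecular identifiers.

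Tests used edgeR 4.0.16 in R 4.3.3: TMM scaling, filterByExpr by group, 1 mean per group and the robust quasi-likelihood F test within each study (12 libraries, with 17772 genes in study 1 and 17893 in study 2), with Benjamini-Hochberg adjustment over all genes and a threshold of 0.05. The script was checked on simulated data. There were 10 comparisons, and 2 contrasts between the control arms of the studies were added after the counts were seen, fitted over all 24 libraries (18999 genes). A member left out by the filter in a study is called too low to measure there. Levels are CPM with 1 TMM scaling over all libraries, and per kb they use the exon union of GENCODE 29. The members and all gene lists were chosen with earlier results of these data known. Named genes are the members, WDR77, up to 4 genes per list with the smallest adjusted p in a comparison whose higher group reached 1 CPM on average, and the 5 genes most correlated with each measured member on log2(CPM + 0.5). PCSK1, PCSK2, NTSR2, SYP-AS1, NOA1 and the cell type markers given with values fall outside this rule and were chosen after their values were seen. A list gene given for some arms only may or may not have passed in the others. Alternatives were DESeq2 1.42.0, RLE size factors, a fit without the filter, a block by run of sample numbers, only the 6 libraries compared, all 24 libraries in 1 fit, and each library left out in turn. A chi-square of counts between libraries of a group found no duplicates. Per degree of freedom it was 18.1 and 18.4 for siCtrl vehicle library S35 against S21 and S7, and 4.66 for S21 against S7. In the other groups it was at most 10.5, so S35 stood apart from its group. The p-values measure the spread between these triplicates.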

Additional observations from a re-analysis of the deposited data

Results flagged for a closer look

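In 3 results the same hormone contrast gave different responses in different arms by a direct test. For NTS, the response to R1881 in P3 minus that in EV was 3.38 ± 0.25 on the log2 scale (edgeR quasi-likelihood test, adjusted p = 3.03e-14), with all 3 R1881 libraries of P3 above those of EV. For REST the same difference was -0.26 ± 0.090 (edgeR adjusted p = 0.0295), and the adjusted p was 0.063 without EV R1881 library S16 and 0.0617 with no filter on low counts. For ENO2, the response in siCtrl minus that in EV was -1.80 ± 0.18 (edgeR adjusted p = 1.45e-07). This last contrast was added after the counts were seen, and the study and the kind of transfection cannot be told apart in it.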

How the results depend on the processing

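Every NTS result kept its direction and its side of the threshold under RLE, no filter, DESeq2, the block, 6-library and 24-library fits; leaving out single libraries changed only the sign of the uncalled siWDR77 against siCtrl difference in R1881 (-0.27 to 0.60). In the other results below the cause was not tested. With no filter, with the replicate block and with only the 6 libraries compared, P3 against EV in vehicle called 2 members, adding ENO2 (0.21, 0.22 and 0.26). With no filter, SYP in P3 against EV with R1881 was -0.59 (edgeR adjusted p = 0.0551), the P3 minus EV difference called 1 member with REST at -0.25 (0.0617), and in siCtrl against EV vehicle ENO2 was -0.28 (0.007) and REST 0.17 (0.0752). With the 6 libraries alone SYP with R1881 in siCtrl was 0.52 (0.063). For siWDR77 against siCtrl with R1881, 1 member was called, SYP, with the block (0.62), the 6 libraries (0.60) and DESeq2 (0.61). In vehicle that pair called 273 genes, and 422 with no filter, 127 with 6 libraries, 491 with 24 and 441 with DESeq2. Its difference of response called 0 genes, and 112, 16 (block), 40 (24 libraries) and 54 (DESeq2).

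The runs of sample numbers were not treated as pairs, since no label ties them to a culture or day and not every pair correlated above 0.1: same-run deviations correlated from -0.06 to 0.334 in study 1 and from -0.219 to 0.243 in study 2. As a hint from the data, 14 and 12 of 18 correlated best with their own run, each among the 3 libraries of the other group. The main tests do not take the runs into account. With the block, ENO2 in siCtrl against EV vehicle passed too (-0.29, edgeR adjusted p = 0.0458).

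Leaving out each library in turn gave these ranges. R1881 in EV: ENO2 0.0065 to 0.22. R1881 in P3: 1 to 2 members called, SYP 0.28 to 0.75. P3 against EV in vehicle: 1344 to 3176 genes and 1 to 2 members called, SYP -0.26 to 0.0079, ENO2 0.18 to 0.28. P3 against EV with R1881: SYP -0.88 to -0.38, ENO2 -0.10 to 0.11, REST -0.27 to -0.16. P3 minus EV difference: ENO2 -0.33 to -0.12 (called without EV R1881 library S16), REST -0.33 to -0.24. R1881 in siCtrl: 2 to 4 members, SYP 0.38 to 0.70, REST 0.16 to 0.25. siWDR77 against siCtrl in vehicle: 91 to 478 genes, SYP -0.12 to 0.21, REST -0.10 to 0.0018. With R1881: 587 to 1983 genes, 0 to 1 members, SYP 0.52 to 0.77, ENO2 -0.33 to 0.011. Their difference: 0 to 43 genes, ENO2 -0.11 to 0.23. The highest of these gene counts for siWDR77 against siCtrl (478, 1983 and 43) came without siCtrl vehicle library S35. siCtrl minus EV difference: 1 to 2 members, REST -0.28 to -0.13. siCtrl against EV vehicle: 1 to 3 members, ENO2 -0.36 to -0.20, REST 0.11 to 0.23, the last not called without EV library S1 or S29 or siCtrl library S7.

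With unscaled totals, levels moved by more than 1 SD for NTS in P3 (11.3 CPM with vehicle, 4.75 with R1881), SYP in siWDR77 vehicle (3.43), ENO2 in P3 vehicle (53.5) and siWDR77 vehicle (32.5), and REST in P3 vehicle (78.3), siCtrl vehicle (83.9) and R1881 (79.8), and siWDR77 vehicle (81.7) and R1881 (84.0). Unscaled totals shift all genes by -0.15 on the log2 scale for R1881 in EV, -0.26 in siCtrl and -0.30 in siWDR77, and by 0.19 for P3 against EV with R1881; relative to that shift REST in siCtrl (-0.07) and ENO2 in EV (-0.08) stay higher, though their signs are below 0. Counts of 0 to 6 limit CHGA, CHGB, SCG2, SCG3 and INSM1.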
